A study of Bos taurus with 8 samples.

Results

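Heme is made from glycine and succinyl-CoA by a chain of enzymes that starts and ends in the mitochondrion, and iron is put into the finished ring in the last step. The first enzyme, aminolevulinate synthase, sets the rate in most cells and is held down by heme itself. In ovarian granulosa cells, the steroid-producing cells that line the follicle, heme serves the cytochrome P450 enzymes of steroid synthesis and the respiratory chain. Described here are 9 genes of this supply, chosen by name: 7 enzymes of heme synthesis (*ALAS1*, *ALAD*, *UROS*, *UROD*, *CPOX*, *PPOX* and *FECH*), the heme-degrading enzyme *HMOX1* and the transferrin receptor *TFRC*. Each has 1 transcript cluster among the 24415 of the array, found by its symbol in the array annotation. The question was whether the supply of heme follows alpha globin, whose transcript was far higher at low oxygen.

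Bovine granulosa cells were held at low oxygen (LOL 1 to 4, 1% oxygen) or normal oxygen (NOL 1 to 4, 21% oxygen) from day 6 to day 8 of culture. Both groups grew without serum in medium with FSH, IGF-1 and androstenedione, and the medium also held transferrin, the protein that carries iron to the receptor TFRC. The cells came from the small and medium follicles of abattoir ovaries and had been frozen before culture. Total RNA of each sample was measured on 1 Affymetrix Bovine Gene 1.0 ST array, and the values are log2 signals. Whether the 4 samples of each oxygen level were separate cultures or animals is stated neither in the labels nor in the methods. The p-values thus reflect the scatter among these 8 samples alone, and that scatter may be technical.

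Differences are LOL minus NOL on the log2 scale, from limma, with a standard error (SE) on that scale and p-values adjusted by Benjamini and Hochberg over all clusters. The adjusted p was under 0.05 in 41.0% of the 24415 clusters, 5017 higher and 4999 lower at LOL, or 3585 higher and 5693 lower with each array centred on its median. With a fold over 2 as well, 4.87% of the clusters were called. The median difference of all clusters was 0.06. Array LOL 3 stood apart on principal component 2, with a score of 26.24, whereas the other 7 arrays lay between -10.94 and 5.76. Cultured granulosa cells were recognisable by their markers, of which all 14 had a mean log2 signal of 4 or more in at least 1 group. Of these markers, 11 fell and 1 rose at LOL, with *CYP19A1*, the aromatase, 7.44-fold lower and the steroid enzyme *HSD17B1* 3.83-fold higher (adjusted p = 6.2e-09 and 2.8e-06). Of 24 measured HIF target genes, which are known to respond to low oxygen, 22 rose and 1 fell, with *NDRG1* 12.6-fold and *ANKRD37* 8.60-fold higher (adjusted p = 2.2e-09 and 1.9e-07).

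Of the 9 genes, *HMOX1* and *ALAD* rose at LOL, *TFRC*, *FECH*, *CPOX*, *ALAS1* and *UROD* fell, and *UROS* and *PPOX* did not pass the test. Thus 7 of 9 passed the adjusted p, beside 41.0% of all clusters, with 2 higher and 5 lower, beside 20.5% of clusters in either direction. A fold over 2 as well was reached by 3 of 9, beside 4.87%. These were *HMOX1* and *ALAD* on the higher side, where 2.22% of clusters were called, and *TFRC* on the lower side, where 2.65% were. The LOL and NOL arrays did not overlap in 8 of the 9 genes, beside 39.4% of all clusters. LOL was the higher group in 2 of these (19.1% of clusters) and the lower in 6 (20.3%). Without LOL 3 the counts of 2 higher and 5 lower were the same. The median difference of the 9 genes was -0.265. All 9 had a mean log2 signal above 4 in both groups, the level under which a fold is given below only as a lower bound. The 41.0%, here and for the lists below, is over all clusters, and the array medians were only 4.06 to 4.18. With only clusters at log2 4 or more in a group tested, 4124 were higher and 4962 lower, out of a smaller total. The share among clusters as bright as these genes was not computed. A share above 41.0% is thus not by itself a trait of the genes. In RNA from whole cultures, fewer cells that express a gene and less of its RNA per cell cannot be told apart.

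**Figure D1:**
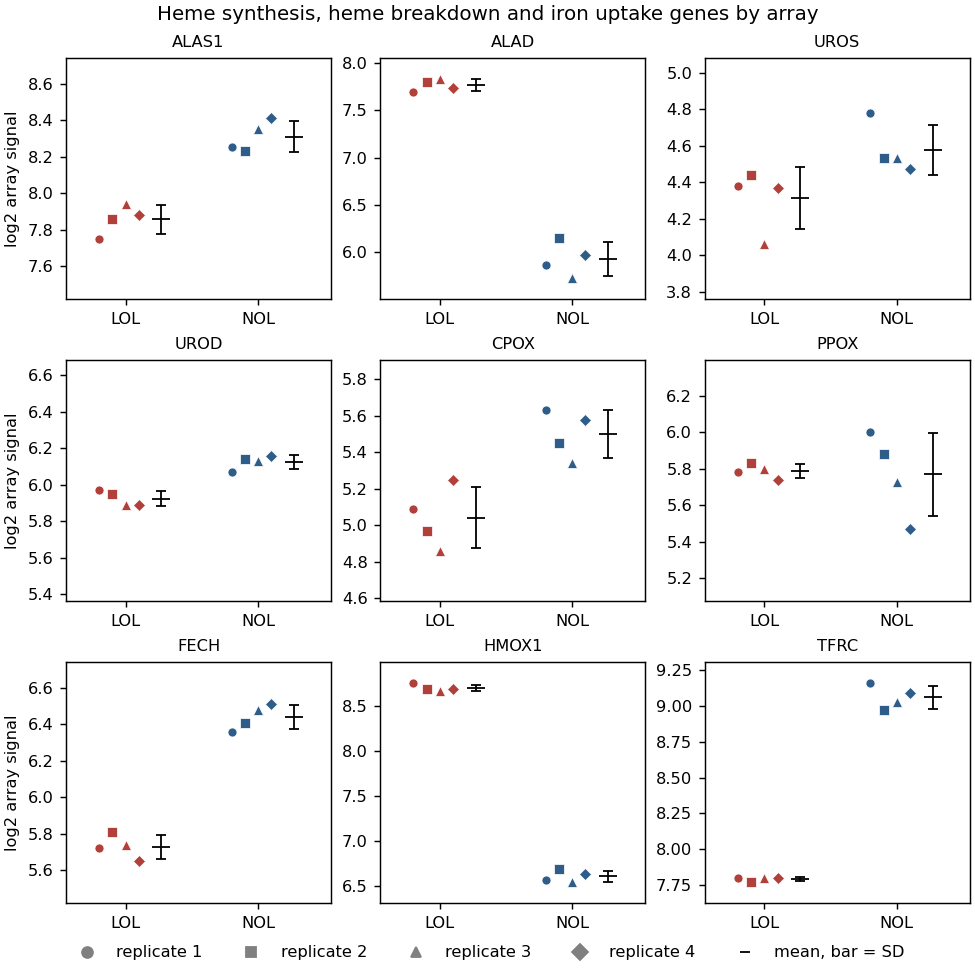
Log2 array signal (vertical axis, scale set for each gene) of the 9 genes in 4 LOL arrays (red, left) and 4 NOL arrays (blue, right), with the mean and SD in black and a symbol for each replicate number. The groups are apart in every gene but *PPOX*, where the 4 LOL arrays, from 5.74 to 5.83, lie within the NOL range of 5.47 to 6.00.

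*ALAS1* encodes the housekeeping form of aminolevulinate synthase, which opens the pathway in the mitochondrial matrix. Its log2 signal was 7.75, 7.86, 7.94 and 7.88 in LOL 1 to 4 and 8.25, 8.23, 8.35 and 8.41 in NOL 1 to 4. Every LOL array lay below every NOL array. *ALAS1* was 1.37-fold lower at LOL (log2 difference -0.45, SE 0.068, 95% interval -0.605 to -0.300, adjusted p = 4.3e-04). The erythroid isozyme *ALAS2*, which serves hemoglobin synthesis in red cell precursors, had a log2 signal of 3.05 ± 0.12 at LOL and 2.88 ± 0.14 at NOL (SD, n = 4 each). With a log2 difference of 0.17 it did not pass the test (SE 0.089, adjusted p = 0.154), and the arrays of both groups overlapped.

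*ALAD*, the cytosolic zinc enzyme that joins pairs of aminolevulinate molecules into porphobilinogen, went the other way. Its signal was 7.69, 7.80, 7.83 and 7.73 in LOL 1 to 4, against 5.87, 6.15, 5.73 and 5.97 in NOL 1 to 4. The LOL arrays agreed closely, and the lowest of them was still far above NOL 2, the highest of the NOL arrays. *ALAD* was 3.56-fold higher at LOL (log2 difference 1.83, SE 0.090, 95% interval of the fold 3.10 to 4.09, adjusted p = 2.8e-07). Among all 24415 clusters this was the rise with rank 129. It was the only one of the 7 synthesis enzymes that rose.

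*UROS* closes the linear tetrapyrrole into the ring of uroporphyrinogen. It had signals of 4.38, 4.44, 4.06 and 4.37 in LOL 1 to 4 and 4.78, 4.53, 4.53 and 4.47 in NOL 1 to 4. All LOL arrays were below all NOL arrays, but LOL 2 and NOL 4 were nearly level and LOL 3 was well below the others. The log2 difference of -0.27 did not pass (SE 0.10, unadjusted p = 0.0251, adjusted p = 0.0591). It passed when only clusters at log2 4 or more in a group were tested (adjusted p = 0.0292) and with median centring (adjusted p = 0.0324), and without LOL 3 it was -0.18 (adjusted p = 0.124).

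*UROD*, the decarboxylase that turns uroporphyrinogen into coproporphyrinogen, fell by a small step with little scatter. Its signal was 5.97, 5.95, 5.89 and 5.89 in LOL 1 to 4 and 6.07, 6.14, 6.13 and 6.16 in NOL 1 to 4. The groups did not overlap, although the gap between LOL 1 and NOL 1 was narrow. The log2 difference was -0.20 (SE 0.055, adjusted p = 0.0156), or 1.15-fold lower. After quantile normalization it was -0.11 and no longer passed (adjusted p = 0.154).

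*CPOX* and *PPOX*, the coproporphyrinogen and protoporphyrinogen oxidases, both use molecular oxygen as a substrate. *CPOX* had signals of 5.09, 4.97, 4.86 and 5.25 in LOL 1 to 4 and 5.63, 5.45, 5.34 and 5.58 in NOL 1 to 4. Its LOL arrays lay below all NOL arrays, with the nearest approach between LOL 4 and NOL 3. *CPOX* was 1.37-fold lower at LOL (log2 difference -0.46, SE 0.098, adjusted p = 0.00388).

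*PPOX* gave 5.78, 5.83, 5.80 and 5.74 in LOL 1 to 4 and 6.00, 5.88, 5.73 and 5.47 in NOL 1 to 4. The NOL arrays were spread widely around the tight LOL arrays. The log2 difference of *PPOX* was 0.018 (SE 0.10, 95% interval -0.216 to 0.251, adjusted p = 0.909). Its sign turned with median centring, at -0.0475, and without NOL 4, at -0.0825. The NOL SD of 0.228 was the highest SD of any of the 9 genes in either group.

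*FECH*, ferrochelatase, inserts ferrous iron into protoporphyrin and itself carries an iron-sulfur cluster. Its signal was 5.72, 5.81, 5.74 and 5.65 in LOL 1 to 4, against 6.36, 6.41, 6.48 and 6.51 in NOL 1 to 4. The groups were clearly apart, with a gap between them larger than the range of either. *FECH* was 1.64-fold lower at LOL (log2 difference -0.71, SE 0.063, 95% interval -0.851 to -0.570, adjusted p = 1.1e-05). Of the 4 synthesis enzymes that fell, *FECH* had the largest difference, and none of the 4 reached a fold of 2.

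Across the pathway, 1 of 7 synthesis enzymes rose, 4 fell and 2 did not pass. The first enzyme and the last thus both fell, while the rise was in the step that follows *ALAS1*. Alpha globin, *HBA*, had signals of 11.38, 11.43, 11.30 and 11.43 in LOL 1 to 4 and 3.64, 3.49, 3.51 and 3.25 in NOL 1 to 4, at least 241-fold higher (log2 difference 7.91, SE 0.085, adjusted p = 3.1e-11). Near-identical alpha globin copies cannot be told apart by such probes. Set beside it, the differences of the synthesis enzymes ran from -0.71 in *FECH* to 1.83 in *ALAD*, with a median of -0.265. The 95% intervals of *ALAS1*, *UROS*, *UROD*, *CPOX* and *FECH* lay wholly below 0, opposite in sign to *HBA*, although *UROS* did not pass the adjusted p. That of *ALAD*, 1.632 to 2.033, lay wholly above 0, with the sign of *HBA*, and that of *PPOX* held 0. No relation between *HBA* and an enzyme across the arrays of a group was tested. Heme, enzyme activity and globin protein were not measured by the arrays.

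**Figure D2:**
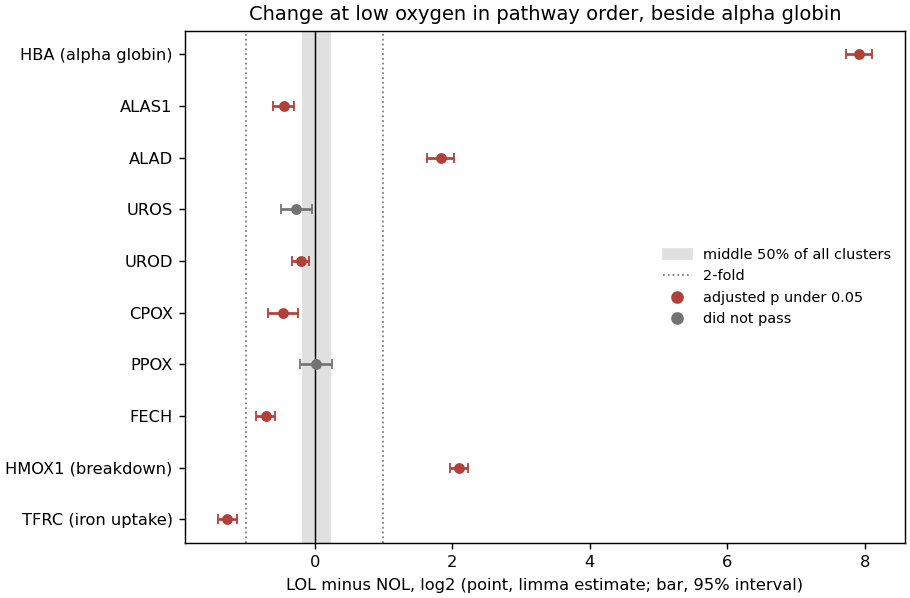
Log2 difference LOL minus NOL (horizontal axis) with its 95% interval from limma for *HBA* and the 9 genes in pathway order from top to bottom. The grey band holds the middle 50% of all clusters, from -0.163 to 0.223, and *HBA* at 7.91 lies far to the right of *ALAD* at 1.83 and *HMOX1* at 2.10. *ALAS1*, *UROS*, *UROD*, *CPOX*, *FECH* and *TFRC* lie left of 0, of which *UROS* did not pass the adjusted p.

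*HMOX1*, the inducible heme oxygenase, splits heme into biliverdin, carbon monoxide and iron, and it also consumes oxygen. Its signal was 8.75, 8.69, 8.66 and 8.69 in LOL 1 to 4 and 6.56, 6.68, 6.54 and 6.63 in NOL 1 to 4. The arrays within each group were almost level, and the groups were far apart. *HMOX1* was 4.27-fold higher at LOL (log2 difference 2.10, SE 0.059, 95% interval of the fold 3.90 to 4.68, adjusted p = 1.2e-08). This was the rise with rank 75 among all clusters and the largest change of the 9 genes. The constitutive isozyme *HMOX2* fell, with signals of 6.20, 6.06, 6.20 and 5.97 in LOL 1 to 4 and 6.53, 6.63, 6.77 and 6.72 in NOL 1 to 4. It was 1.47-fold lower (log2 difference -0.56, SE 0.079, adjusted p = 2.9e-04).

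Downstream of heme oxygenase, biliverdin is reduced to bilirubin. The reductase *BLVRA* fell, with signals of 7.11, 7.13, 7.20 and 7.21 in LOL 1 to 4 and 8.32, 8.34, 8.13 and 8.27 in NOL 1 to 4, a fold of 2.15 (SE 0.066, adjusted p = 8.8e-07). For the related reductase *BLVRB* the log2 difference was 0.033 (adjusted p = 0.728), and it turned to -0.0325 with median centring. Heme exporter *FLVCR1* was 2.73-fold lower at LOL (log2 difference -1.45, SE 0.066, adjusted p = 1.8e-07), with 5.52 to 5.74 in the LOL arrays and 7.06 to 7.17 in the NOL arrays. Its relative *FLVCR2* was 2.37-fold lower (adjusted p = 2.7e-06). *HEBP1*, a heme-binding protein, stood out in the other direction. It was 4.15-fold higher (log2 difference 2.05, SE 0.095, adjusted p = 2.0e-07), with 9.42 to 9.52 in the LOL arrays and 7.17 to 7.63 in the NOL arrays, whereas *HEBP2*, with a log2 difference of 0.013, did not pass (adjusted p = 0.877). Of 17 measured genes of heme breakdown and transport, 6 rose, 7 fell and 4 did not pass, with a median difference of 0.013. The share that passed was 76.5%, beside 41.0% of all clusters.

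*BACH1*, a heme-binding repressor of *HMOX1*, had signals of 6.15, 6.05, 6.24 and 6.20 in LOL 1 to 4 and 5.80, 5.59, 5.86 and 5.93 in NOL 1 to 4. It was 1.29-fold higher at LOL (SE 0.083, adjusted p = 0.00568). *NFE2L2*, which encodes the activator NRF2, was 1.2-fold lower (log2 difference -0.27, SE 0.052, adjusted p = 0.00232). *HMOX1* is also known as an NRF2 target gene. Among 24 other measured genes of that list, 6 rose, 10 fell and 8 did not pass, with a median difference of -0.122. The share that passed was 66.7%, beside 41.0% of all clusters. The small MAF factor *MAFF* rose at least 4.94-fold, and the quinone reductase *NQO1* fell 2.31-fold (adjusted p = 1.0e-06 and 3.6e-06). *NFE2L2* itself is counted in the list. The cause of the rise of *HMOX1*, through these or other regulators, was not tested.

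Macrophages are known to hold much *HMOX1*, and their markers and those of other leukocytes were read as well. Of 23 such markers, 4 rose (*CD68*, *CSF1R*, *ITGB2* and *CD3D*), none fell and 19 did not pass, and 19 had a mean log2 signal under 4 in both groups. That is 17.4% passing, beside 41.0% of all clusters. With no moderation of variances, with median centring or with the filter at log2 4, 2 of these markers rose in place of 4, and *ITGB2* did not pass in the first of these settings (adjusted p = 0.0610). The filter left out *CSF1R* and *CD3D*, which were under log2 4 in both groups, so they were not tested there. The summed signal of the 23 markers on the linear scale ranged from 212 to 258 in LOL arrays and from 192 to 214 in NOL arrays. The pan-leukocyte marker *PTPRC* was at 1.87 in LOL and 1.91 in NOL arrays. The macrophage scavenger receptor *CD163*, which takes up hemoglobin, was at 2.38 in LOL and 2.39 in NOL arrays.

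*TFRC* encodes the receptor that brings iron-loaded transferrin into the cell. Its transcript is known to carry iron-responsive elements that protect it when iron is scarce. Its signal was 7.80, 7.77, 7.80 and 7.80 in LOL 1 to 4 and 9.16, 8.97, 9.03 and 9.09 in NOL 1 to 4. The LOL arrays were nearly identical, and all lay more than a log2 unit below the lowest NOL array. *TFRC* was 2.41-fold lower at LOL (log2 difference -1.27, SE 0.060, 95% interval of the fold 2.20 to 2.65, adjusted p = 2.3e-07). This was the fall with rank 284 among all clusters. In the study's own annotation the cluster also lists a transferrin receptor-like locus, and the signal could not be divided between them.

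*TFR2*, the other transferrin receptor, known for iron sensing in liver and erythroid cells, went up. Its signal was 5.11, 5.08, 5.21 and 5.35 in LOL 1 to 4 and 3.44, 3.74, 3.57 and 3.69 in NOL 1 to 4. It was at least 2.99-fold higher (log2 difference 1.58, SE 0.087, adjusted p = 5.6e-07). Both transferrin receptors therefore changed past a fold of 2, in opposite directions. On the linear scale *TFRC* averaged 222 ± 2.29 at LOL and 535 ± 30.3 at NOL (SD, n = 4 each).

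Of 29 other measured genes of iron uptake, storage and export, 8 rose, 4 fell and 17 did not pass, and their median difference was -0.023. The share that passed, 41.4%, was close to the 41.0% of all clusters. With median centring 4 rose and 7 fell. The 8 that rose were *TFR2*, *FBXL5*, *STEAP2*, *PCBP2*, *TMPRSS6*, *BMP6*, *PCBP1* and *NCOA4*, and only *TFR2* among them reached a fold of 2. The 4 that fell were the carriers *SLC11A2*, *SLC39A14* and *SLC39A8* and the iron regulatory gene *ACO1*. *SLC11A2* (DMT1), which moves iron out of the endosome after transferrin has released it, had signals of 5.22, 4.93, 5.13 and 5.13 in LOL 1 to 4 and 6.18, 6.35, 6.28 and 6.42 in NOL 1 to 4. It was 2.31-fold lower (SE 0.081, adjusted p = 1.8e-06). *SLC39A14* and *SLC39A8*, carriers that also take up iron not bound to transferrin, were 2.23-fold and 1.47-fold lower (adjusted p = 6.3e-07 and 5.6e-05). Another cluster of *SLC39A8* had a log2 difference of -0.66.

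Among genes of iron storage and export, neither ferroportin nor the ferritin clusters passed the test. Ferroportin, *SLC40A1*, the iron exporter, averaged 7.19 ± 0.035 at LOL and 7.28 ± 0.091 at NOL, a log2 difference of -0.093 that did not pass (SE 0.064, adjusted p = 0.277). The ferritin genes *FTH1* and *FTL* are listed only in clusters that carry several names, so their values belong to those groups of loci. In the cluster that lists *FTH1*, the log2 difference was 0.058 (adjusted p = 0.461). For the pair that list *FTL* it was 0.11 and 0.12 (adjusted p = 0.138 and 0.110). The iron regulatory proteins that bind the *TFRC* and ferritin transcripts are encoded by *ACO1* and *IREB2*. *ACO1* was 1.33-fold lower at LOL (log2 difference -0.41, SE 0.057, adjusted p = 2.6e-04). *IREB2* had a log2 difference of -0.17 that did not pass (adjusted p = 0.0688), although it passed under 4 of 14 other settings. The lysosomal channel *MCOLN1* had a log2 difference of -0.028 (adjusted p = 0.730).

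**Figure D3:**
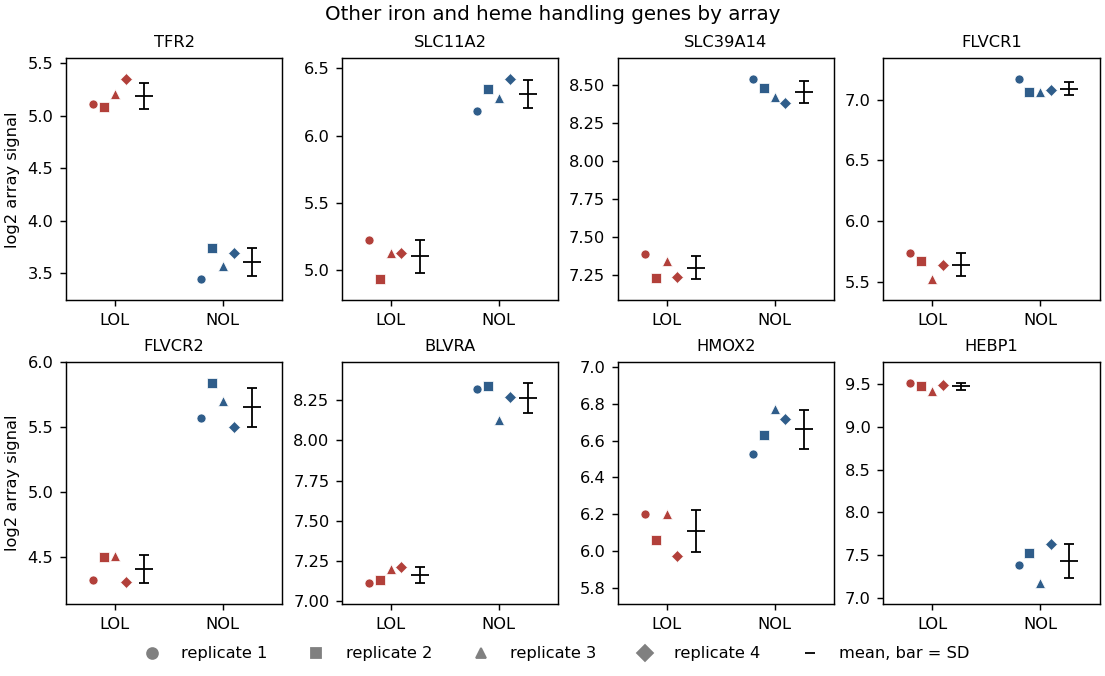
Log2 array signal (vertical axis, scale set for each gene) of 8 genes of iron and heme handling in 4 LOL arrays (red, left) and 4 NOL arrays (blue, right), with mean and SD in black. *TFR2* and *HEBP1* are higher in every LOL array, and *SLC11A2*, *SLC39A14*, *FLVCR1*, *FLVCR2*, *BLVRA* and *HMOX2* are lower in every LOL array.

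The partners of heme synthesis supply substrates, carry intermediates across the mitochondrial membranes or control the enzymes. Of 13 measured, 3 rose, 6 fell and 4 did not pass, and none was called with a fold over 2. Their median difference was -0.11, and 69.2% passed, beside 41.0% of all clusters. *SUCLA2*, a subunit of succinyl-CoA synthetase, which makes a substrate of ALAS1, was 1.84-fold lower (log2 difference -0.88, SE 0.055, adjusted p = 1.2e-06), and the electron carrier *FDX1* was 1.86-fold lower (adjusted p = 7.2e-06). *SLC25A37*, the mitochondrial iron carrier mitoferrin, had a log2 difference of -0.55 (SE 0.13, adjusted p = 0.00616), with signals of 3.43, 3.53, 3.76 and 4.03 in LOL 1 to 4 and 4.26, 4.26, 4.06 and 4.35 in NOL 1 to 4. LOL 4 and NOL 3 were almost level. *ABCB6*, a porphyrin transporter, rose 1.44-fold (log2 difference 0.53, SE 0.064, adjusted p = 9.7e-05). *TMEM14C*, which moves protoporphyrinogen into the matrix, did not pass at a log2 difference of 0.040 (adjusted p = 0.628). Nor did *CLPX*, the chaperone that acts on aminolevulinate synthase, at -0.11 (adjusted p = 0.155).

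**Figure D4:**
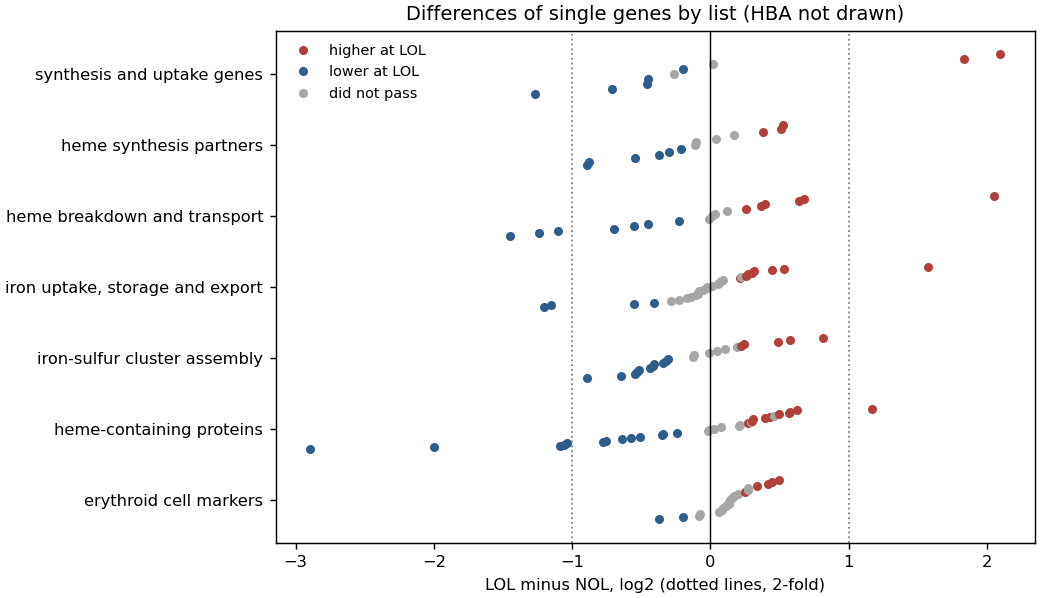
Log2 difference LOL minus NOL (horizontal axis) of each measured gene in 7 lists, red for genes that rose, blue for genes that fell and grey for those that did not pass the adjusted p. *HBA* is not drawn. In the top row *HMOX1* at 2.10 and *ALAD* at 1.83 stand alone on the right, and in the bottom row no erythroid marker reaches the dotted line of 2-fold.

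The list of proteins that hold or bind heme split between directions. Of 32 measured, 11 rose, 13 fell and 8 did not pass (75% passing, beside 41.0% of all clusters), with a median difference of 0.05. The globins *HBA*, *HBB*, *NGB*, *MB* and *CYGB* are counted both here and among the globin chains. Besides *CYP19A1*, the P450 enzyme *CYP1B1* fell at least 3.99-fold (adjusted p = 9.0e-08). The heme-binding clock repressor *NR1D2* rose 2.25-fold (adjusted p = 3.4e-07). Catalase, *CAT*, with a log2 difference of 0.073, and neuroglobin, *NGB*, with 0.22, did not pass (adjusted p = 0.375 and 0.134). Apart from *HBA*, 4 of the other 12 measured globin-list genes rose and none fell, the embryonic *HBZ* by 4.56-fold, while the beta chain *HBB* had a log2 difference of 0.30 and did not pass (adjusted p = 0.113). With *HBA* counted, 38.5% of the 13 globin-list genes passed, beside 41.0% of all clusters.

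Most markers of erythroid cells, the cells best known for heme synthesis, gave a low signal. Of 21 measured, 5 rose (*EPB42*, *ANK1*, *GATA1*, *TAL1* and *EPOR*), 2 fell (*EPB41* and *ERMAP*) and 14 did not pass, with a median difference of 0.142. That is 33.3% passing, beside 41.0% of all clusters. *EPB41* passed narrowly (adjusted p = 0.0486), and 1 marker in place of 2 fell with quantile normalization, with no moderation of variances, with the replicate block and without any single array other than NOL 4. With the filter at log2 4, 2 in place of 5 rose, since *EPB42*, *ANK1* and *GATA1* were under that level in both groups and were left out. In 14 of the 21 the mean log2 signal was under 4 in both groups. The erythroid factor *GATA1* was at 3.21 ± 0.17 in LOL arrays and 2.72 ± 0.23 in NOL arrays, and the erythropoietin receptor *EPOR* was at 4.68 ± 0.16 in LOL and 4.23 ± 0.15 in NOL arrays (SD, n = 4 each; adjusted p = 0.00875 and 0.00485). The band 3 gene *SLC4A1* was at 2.93 in LOL and 2.87 in NOL arrays, and the carbonic anhydrase *CA1* at 0.94 in LOL and 1.02 in NOL arrays. On the linear scale the summed signal of the list was 366 to 396 in LOL arrays and 357 to 391 in NOL arrays, so the groups overlapped. Of 12 endothelial markers 3 rose, among them *CLDN5*, 3.82-fold, and *TEK*, with a log2 difference of 0.42, none fell, and 10 were under log2 4 in both groups. Their summed linear signal was 158 to 172 in LOL arrays and 96.9 to 115 in NOL arrays. Most of that gap was *CLDN5*, at 65.6 in LOL and 17.6 in NOL arrays, and 9 of the 12 did not pass. The share of endothelial markers that passed was thus below the 41.0% of all clusters. With the filter at log2 4, 1 rose in place of 3, since *TEK* and *ESAM* were under that level in both groups and were left out. Of 7 theca markers, *INSL3* rose 2.05-fold and *LHCGR*, which granulosa cells also express, fell at least 1.77-fold, with a summed linear signal of 537 to 561 in LOL arrays and 338 to 395 in NOL arrays. *INSL3* alone, at 356 in LOL and 175 in NOL arrays, made up nearly all of that gap, and the other 5 theca markers did not pass. The share of theca markers that passed was 28.6%, again beside 41.0%. The part of other cell types in the results for the 9 genes was not tested.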

How the data were processed

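Total RNA of 8 samples was measured on 1-colour Affymetrix Bovine Gene 1.0 ST arrays, with groups taken from the oxygen level that each title gives. The deposited log2 values were made by the authors with RMA (robust multichip average, its version not given), which removes background, normalizes arrays and summarises probes per transcript cluster. The values run from 0.08 to 12.42 and were used as deposited. Arrays have no sequencing depth, so precision is limited by their number, and no measure of background was used. Where the lower group had a mean log2 signal under 4, the fold is given as at least.

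LOL and NOL were compared in all 24415 clusters with limma 3.58.1 in R 4.3.3 (2 groups, moderated variances, two-sided), with Benjamini-Hochberg adjustment over all clusters. A cluster passed at an adjusted p under 0.05 and was called with a fold over 2 as well, the thresholds of the methods. The fit was tested on simulated data. Names come from the array annotation, which names 1 gene for 18550 clusters, more than 1 for 595 and no gene for 5270, and older symbols were matched through RefSeq gene IDs. The *FECH* cluster carries 1 symbol with more than 1 gene ID. A list gene with several clusters was read from the one with the highest mean. The members and the 13 lists were chosen with earlier results of these data known, and no test over a list was made. Named are the 9 genes, fixed key genes of heme and iron, from each of the 5 pathway lists up to 4 genes that passed with the largest difference and up to 2 with the highest signal that did not, and up to 2 that passed from other lists. *HBB*, *PTPRC*, *CD163*, *SLC4A1*, *CA1* and the listed members of small counts lie outside this rule and were chosen after their values were seen. Sequences and genome positions are not used here.

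The alternatives were quantile normalization, median centring, a filter at log2 4, no moderation of variances (nearest to the analysis of variance in the methods), a variance trend, a replicate block, leaving out each array, the mean of a gene's clusters and adding clusters with several names.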

Additional observations from a re-analysis of the deposited data

Results flagged for a closer look

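In groups of 4 arrays, an array was singled out where its gap to the nearest other array, as a share of the range, exceeded the 95% value of Dixon's test. Of 116 groups tested in 58 named genes, 7 held such an array, and chance gives about 1 in 20. In *TFRC*, LOL 2 was at 7.77, whereas the other LOL arrays were all at 7.80, so the gap is the last digits of the values. NOL 4 lay apart at 9.10 in *NFE2L2*, with the other NOL arrays at 9.15 to 9.16, at 8.41 in *TMEM14C* (others 8.27 to 8.29) and at 3.32 in *MAFF* (others 3.76 to 3.82). In *ABCB6* NOL 3 was at 6.81, below 6.95 to 6.96 in the others. *CAT* was highest in LOL 3 at 8.48, against 8.36 to 8.38 in the other LOL arrays. In *EPOR* NOL 2 was at 4.45, above 4.14 to 4.17 in the others, and still below the lowest LOL array.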

How the results depend on the processing

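Over 14 other settings, *ALAS1*, *ALAD*, *CPOX*, *FECH*, *HMOX1* and *TFRC* kept their direction and passed the adjusted p in each. In that order, their log2 differences lay between -0.518 and -0.417, 1.77 and 1.91, -0.527 and -0.394, -0.775 and -0.638, 2.03 and 2.13, and -1.34 and -1.24. *UROS*, whose signal was close to log2 4, and *UROD*, with a difference of only -0.20, changed their side of the threshold under the settings named for them above. The counts of 2 higher and 5 lower among the 9 genes held when any 1 array was left out. With median centring, 4 genes of iron uptake, storage and export were higher and 7 lower, and 3 of iron-sulfur cluster assembly were higher. Without single arrays the last count was 3 to 5. Of the granulosa markers 2 in place of 1 rose with the filter at log2 4, with no moderation and with a variance trend, and of the HIF targets 2 in place of 1 fell with median centring and with the trend. Differences close to 0 turned in sign with median centring in *PPOX* (-0.0475), *TMEM14C* (-0.025), *BLVRB* (-0.0325), *HEBP2* (-0.0525) and *FAM96A* (-0.0175), and with quantile normalization in *NFS1* (0.0806). With 1 array left out the sign turned in *PPOX* without NOL 4 (range -0.0825 to 0.0942), in *HEBP2* without NOL 4 or LOL 2 (-0.00417 to 0.0292) and in *NFS1* without NOL 3, LOL 1 or LOL 2 (-0.0308 to 0.00583), and the cause was not tested. *CLPX* passed with median centring and *NGB* without LOL 1 (adjusted p = 0.0484 and 0.0272).

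With the replicate number as a block, 4935 clusters were higher and 4823 lower, and every call of the 9 genes stayed, *UROD* at an adjusted p of 0.0492. Whether the numbers pair the arrays is not stated, and correlations this close to 0 cannot settle it. Deviations of same-numbered arrays correlated at -0.027 to 0.114. The highest value of any LOL and NOL pair was that of LOL 3 with NOL 3 (0.114), whereas LOL 1 was closest to NOL 4 (0.076).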

Other observations

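Iron-sulfur clusters are the other large use of mitochondrial iron, and *FECH* itself carries one. Of 22 measured genes of their assembly, 11 fell, 5 rose and 6 did not pass at LOL, with a median difference of -0.22 (72.7% passing, beside 41.0% of all clusters), and none reached a fold of 2. Without any 1 array other than NOL 1 and LOL 3, 3 rose in place of 5. *FDX1*, 1.86-fold lower, is counted both here and among the partners of heme synthesis. *FAM96B*, a factor of the cytosolic assembly machinery, was 1.57-fold lower (log2 difference -0.65, standard error 0.062, adjusted p = 1.9e-05). *MMS19*, of the same machinery, was 1.76-fold higher and *ISCA1*, a mitochondrial assembly factor, 1.49-fold higher (adjusted p = 5.1e-06 and 8.8e-05). *NFS1*, the desulfurase that provides the sulfur, had a log2 difference of -0.010, and that of *FAM96A* was 0.048 (adjusted p = 0.903 and 0.633).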
